A study of Mus musculus with 9 samples.

Results

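The lysosomal enzymes, the lysosomal membrane proteins and the broadly expressed subunits of the vacuolar-type proton ATPase (V-ATPase) were followed by RNA sequencing in the kidneys of young and old mice. They were listed as 50 gene symbols, with earlier results of these data known, and all 50 were among the 13081 genes of the table. They form 4 classes, namely 17 V-ATPase genes, 9 cathepsins and partner proteases, 14 other soluble lysosomal proteins and 10 membrane proteins. The mice were wild type, of the C57BL/6 strain, and the labels name no treatment other than age. The young group comprised 4 libraries from mice of 3 months and the old group 5 libraries from mice of 16 months, and the sex of the animals was not given in the labels. Total kidney RNA was reverse transcribed from its poly(A) tail, so that reads come from the 3′ end of each transcript, and levels are given as normalised counts, which are reads divided by 1 size factor per library. Errors of levels are SD over libraries and errors of log2 fold changes (old minus young) are SE.

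Lysosomes are the acidic organelles in which cells break down proteins, glycans, lipids and nucleic acids delivered by endocytosis and autophagy. The V-ATPase pumps protons into them: its cytosolic V1 sector hydrolyses ATP and its membrane-embedded V0 sector carries the protons, and the resulting low pH activates cathepsins and other hydrolases. In the kidney the proximal tubule reabsorbs filtered protein and degrades it in lysosomes, and acid-secreting intercalated cells of the collecting duct place further V-ATPases, with tissue-restricted subunits, in their plasma membrane. Many genes of this system carry a CACGTG-containing element near their transcription start that is bound by TFEB and related factors, whose nuclear entry is restrained by mTORC1, the nutrient-sensing kinase complex at the lysosomal surface with which the study is concerned.

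Promoter windows, running from 250 bases before to 50 bases after each annotated start, were available from RefSeq for 40 of the 50 genes (mouse build GRCm38.p6). The letters CACGTG, a palindrome and thus the same on both strands, were found in a window of 14 of the 40 genes (35.0%). The same held for 1153 of the 9620 tested genes with a window (12%) and for 8.09% of all genes with a window. The longer form TCACGTGA, which contains the first, was found for 8 of the 40 genes, for 2.26% of the tested genes and for 1.12% of all genes. Stretches of 8 genes are shown because their transcripts span the range of outcomes described below: 6 fell in old kidney, whereas Lamp1 and Ctsd did not pass the main test. Each is written 5′ to 3′ on the strand of its gene, with CACGTG or TCACGTGA in capitals.
Lgmn (chr12:102439110-102439167, minus strand, bases 75 to 18 before the start): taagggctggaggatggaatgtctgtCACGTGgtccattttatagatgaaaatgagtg
Glb1 (chr9:114401004-114401061, plus strand, bases 74 to 17 before the start): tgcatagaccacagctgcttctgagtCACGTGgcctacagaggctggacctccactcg
Clcn7 (chr17:25133350-25133390, plus strand, bases 41 to 1 before the start): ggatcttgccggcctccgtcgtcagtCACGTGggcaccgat
Mcoln1 (chr8:3500422-3500505, plus strand, bases 97 to 14 before the start): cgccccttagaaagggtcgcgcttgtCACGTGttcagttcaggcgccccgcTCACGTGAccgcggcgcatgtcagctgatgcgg
Ctsa (chr2:164833735-164833772, plus strand, bases 38 to 1 before the start): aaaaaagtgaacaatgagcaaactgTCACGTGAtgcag
Atp6v1a (chr16:44139359-44139416, minus strand, bases 157 to 100 before the start): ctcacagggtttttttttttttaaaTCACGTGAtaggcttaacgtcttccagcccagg
Lamp1 (chr8:13159074-13159160, plus strand, bases 87 to 1 before the start): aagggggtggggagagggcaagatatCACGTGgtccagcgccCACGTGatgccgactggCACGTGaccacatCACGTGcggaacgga
Ctsd (chr7:142387894-142387951, minus strand, bases 124 to 67 before the start): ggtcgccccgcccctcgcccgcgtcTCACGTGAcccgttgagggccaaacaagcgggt
The stretch of Lamp1 holds 4 copies of CACGTG and that of Mcoln1 holds 2, 1 of them within TCACGTGA. A match is a description of letters only, and binding of a factor was not measured here.

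The libraries held 5093029 to 6355095 reads in young and 4486406 to 5794960 reads in old kidney. Transcripts of the mitochondrial genome took 27.0% to 29.7% of the reads in young and 35.8% to 38.1% in old libraries. The first principal component of all genes, with 71.3% of the variance, separated the ages, and old replicate 2, at 33.97, lay nearest the young libraries among the old ones, the others being at 47.19 to 56.51. The library titles carry a pair of prefixes and neither is found at both ages, so that age and whatever the prefix stands for cannot be told apart. Markers of the kidney cell types were detected in every library, and in whole tissue fewer cells of a type and less RNA per cell cannot be told apart.

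More of the lysosomal transcripts fell than rose in old kidney. Of the 50 genes, 25 fell, 8 rose and 17 did not pass the test (limma on log2 values, Benjamini-Hochberg adjusted p under 0.05 over 12667 genes). The ages differed widely across the whole table, with 59.7% of all genes tested called in either direction. Falls made up 50% of the lysosomal genes and 30.5% of all genes tested, and rises made up 16.0% and 29.2%. The 50 genes had a higher level, with a median of 605 normalised counts against 82.9 over 12433 genes tested. Among genes with a mean of at least 100, 21 of 44 lysosomal genes fell and 9 rose, where 2061 of 5655 genes fell and 2040 rose. The median log2 fold change (old minus young) was -0.26 over the 50 genes and -0.0027 over all genes tested. With a change of at least 1.5-fold as a further condition, 19 fell and 4 rose, where 23.6% of all genes fell and 21.6% rose by that rule. Every old library lay below every young library for 23 of the 50 genes (46%) and for 25.7% of all genes, and above for 6 (12%) and for 23.3% of all genes. When the mitochondrial genes were left out of the scaling, the median of all genes moved to 0.14 and that of the lysosomal genes to -0.12. The split became 23 lower and 13 higher, where 3170 of all 12654 genes tested fell and 4483 rose. With the trend on transcript length removed it was 24 lower and 14 higher, where 3589 of 12433 fell and 3606 rose. Scaled to the table total it was 26 lower and 7 higher, where 4078 of 12695 fell and 3372 rose. Counts given below under these scalings stand against these counts over all genes.

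**Figure D1:**
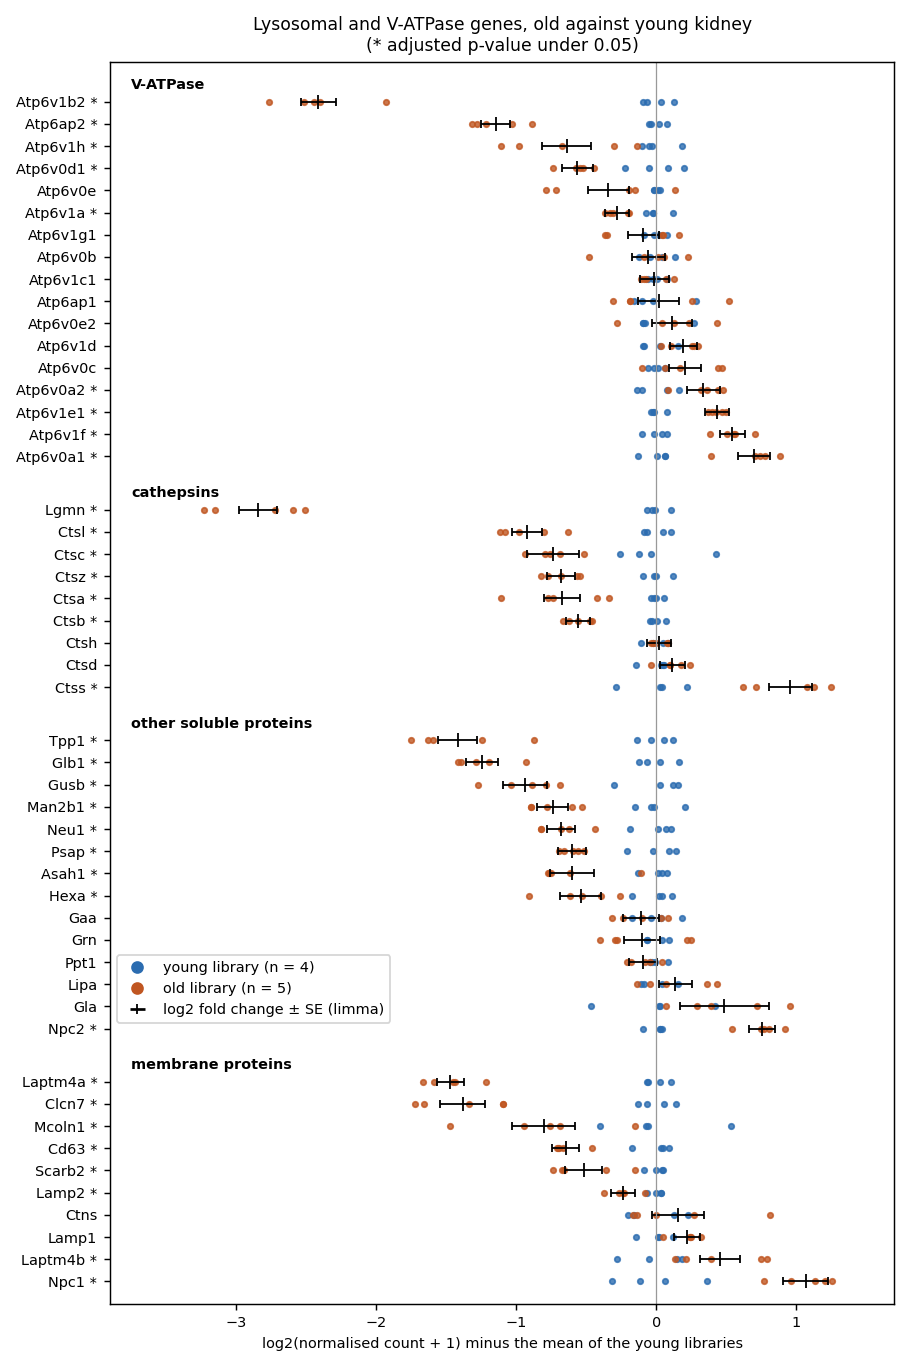
Each row is 1 of the 50 genes, grouped by class, and the horizontal axis is log2(normalised count + 1) minus the mean of the young libraries. Blue points are the 4 young libraries, orange points the 5 old libraries, black marks the limma log2 fold change ± SE, and an asterisk a gene with adjusted p under 0.05; Lgmn and Atp6v1b2 lie farthest to the left and Npc1 and Ctss farthest to the right.

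Of the 17 V-ATPase genes 5 fell, 4 rose and 8 did not pass the test, and the median log2 fold change was -0.014. These shares, 29.4% lower and 23.5% higher, lay near the 30.5% and 29.2% of all genes tested. The V-ATPase genes had more reads, however, with a median of 803 normalised counts against 82.9 over 12433 genes tested. All 17 reached a mean of 100 normalised counts, and with that filter again 5 fell and 4 rose. Of the 5655 genes that passed it, 2061 fell and 2040 rose, so that beside these the V-ATPase genes were called less often. The B subunit transcript Atp6v1b2 dropped to 19.1% of its young level, whereas those of the F and E subunits of the same sector rose and Atp6v0a1 of the V0 sector rose 1.63-fold. The counts depended on the scaling. Without the mitochondrial genes 6 rose and 4 fell, where 4483 of all 12654 genes tested rose and 3170 fell. With the length trend removed 7 rose and 5 fell, where 3606 of 12433 rose and 3589 fell. When the reads were scaled to the table total 3 rose and 6 fell, where 3372 of 12695 rose and 4078 fell.

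In the V1 sector, Atp6v1b2, which encodes the broadly expressed B subunit that forms the ATP-binding hexamer with the A subunit, was measured at 1823, 1957, 2085 and 1787 normalised counts in the 4 young libraries and at 281, 499.9, 360.0, 333 and 350.1 in the 5 old libraries. All old libraries lay far below all young ones, and old replicate 2 was the highest of the old. The log2 fold change was -2.41 ± 0.13 (SE), a 5.25-fold fall (adjusted p = 2.25e-11, limma). Its catalytic partner, the A subunit Atp6v1a, was at 2488, 2409, 2491 and 2746 in young and 2205, 2017, 2037, 1963 and 2204 in old kidney. These groups were also separate, but the fall was small (-0.28 ± 0.086, adjusted p = 0.00887), and it missed the threshold without the mitochondrial genes (adjusted p = 0.174). Atp6v1h, the regulatory H subunit, went from 189 ± 17.2 (SD, n = 4) to 125 ± 36.5 (SD, n = 5), a log2 fold change of -0.64 ± 0.17 (adjusted p = 0.00388).

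A rotor and a peripheral stalk transcript of V1 rose. Atp6v1f, a rotor subunit, was at 1549, 1403, 1489 and 1584 normalised counts in young and 2224, 2132, 1967, 2457 and 2212 in old libraries. Every old library exceeded every young one, with a log2 fold change of 0.54 ± 0.09 (adjusted p = 3.99e-05), although 21.1% of the 50-base words in the last 500 bases of this transcript also occur in other annotated transcripts. Atp6v1e1, a peripheral stalk subunit, rose from 737, 788, 738 and 728 to 1004, 965, 1056, 983 and 1037, again without overlap (0.43 ± 0.084, adjusted p = 0.000222). The remaining V1 genes did not pass the main test. The rotor subunit Atp6v1d was at 619.9, 526, 568 and 522 in young and 685, 674, 665, 599 and 569.7 in old kidney (0.19 ± 0.10, adjusted p = 0.0954). It was called higher without the mitochondrial genes (0.33, adjusted p = 0.00732) and without old replicate 5 (0.23, adjusted p = 0.0464). Atp6v1c1, another stalk subunit, was nearly level, at 224, 240.0, 228 and 219 in young and 211, 217, 239, 215 and 249 in old libraries (-0.014 ± 0.11). The stalk subunit Atp6v1g1 was at 1044, 1098, 1126 and 1168 in young and at 1146, 1237, 1139.9, 869 and 860.3 in old libraries, of which old replicates 4 and 5 lay below all young libraries and old replicate 2 above them (-0.093 ± 0.11). The sign of Atp6v1c1 and of Atp6v1g1 changed when the mitochondrial genes were left out or the length trend was removed, and in the latter case Atp6v1g1 was called higher (0.28, adjusted p = 0.0323).

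In the V0 sector 2 of 7 genes rose (28.6%) and 1 fell (14.3%), against 29.2% higher and 30.5% lower of all genes tested. Atp6v0a1 encodes one of the large a subunits that anchor the pump and set its location, and it was at 222, 214, 222 and 195 normalised counts in young and 364, 347, 392, 356 and 279 in old kidney. Old replicate 5 was the lowest old library and still above all young libraries, and the log2 fold change was 0.70 ± 0.11 (adjusted p = 3.28e-05). The paralogous a subunit Atp6v0a2 was at 223, 185, 180.4 and 209 in young and 256, 269, 277, 209.9 and 248 in old libraries, with overlap between the ages. Its smaller rise (0.34 ± 0.12, adjusted p = 0.0186) was no longer called without young replicate 2 or 3 (adjusted p = 0.0618 and 0.0695), after scaling to the table total (0.0589) or with the length trend removed (0.387). The d subunit Atp6v0d1, which couples the rotor to the membrane ring, fell from 416 ± 51.6 (SD, n = 4) to 280.3 ± 20.4 (SD, n = 5), with no overlap (-0.56 ± 0.11, adjusted p = 0.000208).

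The ring and small subunits of V0 were not called in the main test. The proteolipid Atp6v0c, which forms most of the proton-carrying ring, was at 4381, 4153, 4519 and 4287 in young and 5878, 5991, 4874, 4529.7 and 4029 in old kidney. Old replicates 1 and 2 were the highest of all libraries and old replicate 5 the lowest, and the test gave 0.21 ± 0.11 (adjusted p = 0.124). It was called higher without old replicate 5 (0.29, adjusted p = 0.0263), without the mitochondrial genes (0.35, adjusted p = 0.0148) and with the length trend removed (0.57, adjusted p = 0.000128). The second ring subunit, Atp6v0b, was at 1079, 1022, 1225 and 1149 in young and 1126, 1051, 798, 1304 and 1158 in old libraries (-0.056 ± 0.12, adjusted p = 0.704), and it was called higher with the length trend removed (0.34, adjusted p = 0.0156). The small e subunit Atp6v0e was at 903, 888, 912 and 885 in young libraries, which were closely alike, and at 807, 986, 785, 546 and 519 in old ones, of which old replicates 4 and 5 were far below and old replicate 2 above them. It came close to the threshold (-0.34 ± 0.15, adjusted p = 0.0525), and it was called lower in 6 of 20 alternatives and higher in none. Among these was the test without old replicate 2, its highest old library (adjusted p = 0.00467). Atp6v0e2, the paralog, was at 155, 154, 156 and 199 in young and 194, 180.5, 136, 223 and 169.7 in old libraries (0.11 ± 0.14, adjusted p = 0.516, or 0.0320 with the length trend removed).

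The accessory subunits parted from each other. Atp6ap2, the (pro)renin receptor, which is needed for assembly of the pump, was at 645, 699, 672 and 641 in young and 358, 324, 285, 266 and 273 in old kidney. It fell 2.21-fold without overlap (-1.15 ± 0.11, adjusted p = 3.44e-08). Atp6ap1, the other accessory protein of V0, was at 843, 810.4, 890.3 and 1098 in young and 794, 729.6, 792, 1077 and 1294 in old libraries, with old replicate 5 the highest library of all (0.017 ± 0.15, adjusted p = 0.928). Its sign was negative when that library was left out (-0.11).

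Of 7 subunits restricted to acid-secreting and other specialised cells, 3 fell (42.9%), 2 rose (28.6%) and 2 did not pass the test, against 30.5% lower and 29.2% higher of all genes tested, with 3 lower and 1 higher after scaling to the table total. The B subunit of intercalated cells, Atp6v1b1, fell from 340.5 ± 23.4 (SD, n = 4) to 223 ± 35.2 (SD, n = 5; -0.62 ± 0.12, adjusted p = 0.000255), so both B subunit transcripts were lower in old kidney. The restricted d subunit Atp6v0d2 also fell together with its broadly expressed counterpart Atp6v0d1, from 98.2 ± 19.7 to 57.4 ± 8.98 (-0.76 ± 0.18, adjusted p = 0.00108). Atp6v1g3, the renal G subunit, fell by 0.53 on the log2 scale (adjusted p = 0.00067). The 4 a subunit transcripts were all called higher in old kidney in the main test, and none changed sign under another scaling. The calls of Atp6v0a2 and Tcirg1 were lost after scaling to the table total, and that of Atp6v0a2 also with the length trend removed. Atp6v0a4, the a subunit of intercalated cells, rose from 857 to 1139 (0.40 ± 0.10, adjusted p = 0.00235), and Tcirg1, the a subunit of osteoclasts, from 47.8 to 66.7 (0.45 ± 0.18, adjusted p = 0.0372), a call that was lost in 7 of 20 alternatives (adjusted p up to 0.105). The 11 intercalated cell markers, of which Atp6v1b1, Atp6v0d2 and Atp6v1g3 are part, summed to 2540 to 2724 normalised counts in young and 2377 to 3019.8 in old libraries, with 5 lower and 3 higher, and their part in these differences was not tested.

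**Figure D2:**
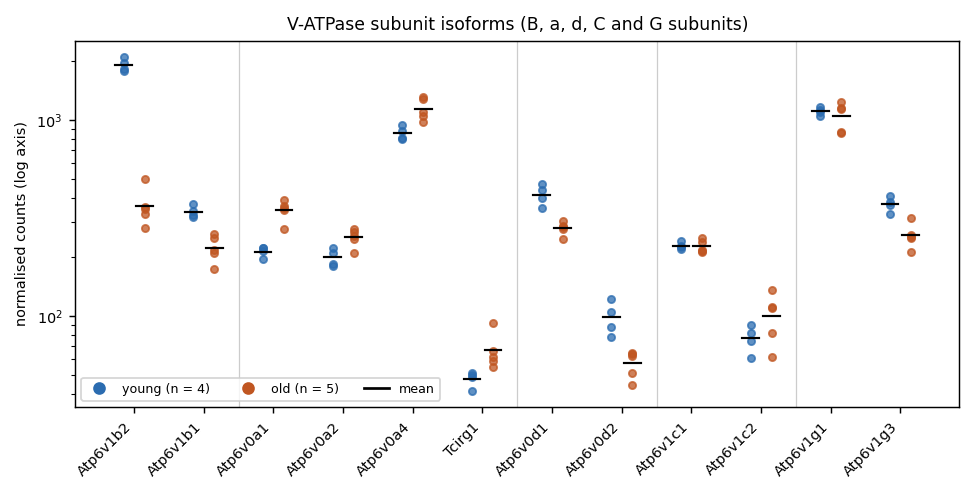
Normalised counts on a log axis for broadly expressed and tissue-restricted isoforms of the B, a, d, C and G subunits, separated by grey lines; blue points are the 4 young libraries, orange points the 5 old libraries and black lines the means. Both B and both d subunit transcripts are lower in old kidney, and the means of all 4 a subunits are higher; heights of different genes are not comparable.

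Among the 9 measured factors of V-ATPase assembly, 5 rose (55.6%), 3 fell (33.3%) and 1 was not called, where 29.2% of all genes tested rose and 30.5% fell. Dmxl1, a subunit of the rabconnectin complex that joins V1 to V0, rose from 133 ± 4.26 (SD, n = 4) to 573 ± 58.9 (SD, n = 5), which is 4.3-fold (2.09 ± 0.10, adjusted p = 1.02e-11), with a smaller log2 fold change of 1.47 when the length trend was removed. Oxr1, which belongs to a family of proteins that bind V1 and regulate assembly, rose from 59.9 to 161 (1.39 ± 0.15, adjusted p = 2.08e-07). In the other direction, Ccdc115 and Vma21, both of which act in the endoplasmic reticulum on assembly of V0, fell from 104 to 20.3 (-2.34 ± 0.21, adjusted p = 3.37e-08) and from 209.9 to 102 (-1.05 ± 0.14, adjusted p = 2.45e-06). Among the other rabconnectin subunits, named after their values were seen, Dmxl2 (1.13) and Wdr7 (0.90) rose with Dmxl1 on the log2 scale, whereas Rogdi fell from 364 to 181 normalised counts.

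Most cathepsins were lower in old kidney, with Lgmn and Ctss at the opposite ends. Of the 9 genes of this class 6 fell (66.7%), 1 rose (11.1%) and 2 did not pass the test, against 30.5% lower and 29.2% higher of all genes tested, and the median log2 fold change was -0.67. With the mitochondrial genes left out, 6 fell and 2 rose, where 3170 of all 12654 genes tested fell and 4483 rose. With the length trend removed 6 fell and 3 rose, where 3589 of 12433 fell and 3606 rose.

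Lgmn encodes legumain, the asparaginyl endopeptidase that also processes other cathepsins into their mature forms. It was measured at 1151, 1134, 1242 and 1107 normalised counts in young and 123, 202, 129.8, 174 and 191 in old libraries. All old libraries were far below the young ones, at 14.2% of the young mean, and the log2 fold change of -2.84 ± 0.14 was the largest in size of the 50 genes (adjusted p = 7.04e-12). Ctsl, a cysteine endopeptidase, was at 918, 880.3, 815 and 802 in young and 393, 551, 489, 402 and 431 in old kidney. The ages were separate here too (-0.92 ± 0.11, adjusted p = 7.46e-07). Smaller falls, again without overlap of the ages, were measured for Ctsc, the dipeptidyl peptidase that activates granule serine proteases (-0.74 ± 0.19, adjusted p = 0.00214), for the carboxypeptidase Ctsz (-0.68 ± 0.10, adjusted p = 1.27e-05) and for Ctsa, the serine carboxypeptidase that protects β-galactosidase and neuraminidase (-0.67 ± 0.13, adjusted p = 0.000169). Ctsb, a cysteine protease with both endopeptidase and dipeptidase activity, went from 1570.4 ± 55.3 (SD, n = 4) to 1069 ± 66.6 (SD, n = 5; -0.56 ± 0.086, adjusted p = 1.83e-05).

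Ctss, a cysteine protease of antigen-presenting cells that trims the invariant chain of MHC class II, was the only cathepsin that rose in the main test. It was at 112, 98.1, 99 and 78.8 normalised counts in young and 229.8, 149, 204, 212 and 158 in old kidney. The lowest old library stood above the highest young one, and the rise was 1.96-fold (0.96 ± 0.15, adjusted p = 2.58e-05). Beside it, 15 macrophage markers summed to 1413 to 1641 normalised counts in young and 1679 to 2262 in old libraries. Of these, 6 were higher, 1 (C1qc) was lower and 8 were not called, where 29.2% of all genes tested were higher and 30.5% lower. Adgre1 and Mrc1, among the 6, passed the filter on low counts only through the old libraries, where they are high (young libraries at 5.43 to 9.83 and 6.34 to 12.6 normalised counts), and without them 4 of 13 were higher. The call of Adgre1 was also lost without young replicate 2 or 4 (adjusted p up to 0.0859), and with the length trend removed 7 were higher and none lower. Each marker had reads in every library, and their part in the rise of Ctss was not tested.

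The aspartic protease Ctsd and the aminopeptidase Ctsh were not called in the main test. Ctsd was at 1766, 1774, 1743 and 1545 in young and 2018, 1820.2, 1828, 1923 and 1661 in old kidney (0.12 ± 0.089, adjusted p = 0.277). Young replicate 4 lay below the others of its age. Ctsh was at 1490.5, 1524, 1415 and 1338 in young and 1438, 1519, 1529, 1419 and 1401 in old libraries, with the old libraries spread over the same range as the young (0.02 ± 0.085, adjusted p = 0.85). Both were called higher with the length trend removed (adjusted p = 0.00536 and 0.00443), and Ctsd also without the mitochondrial genes (0.26, adjusted p = 0.0181).

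**Figure D3:**
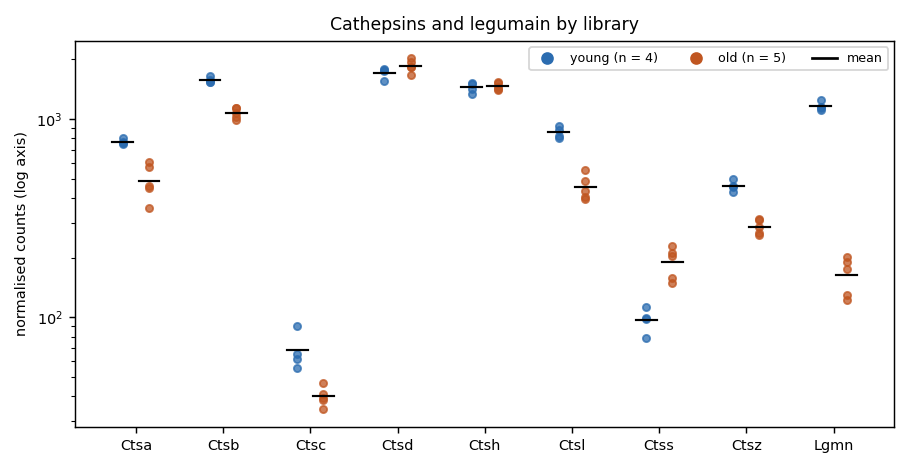
Normalised counts on a log axis for the 9 cathepsin-class genes; blue points are the 4 young libraries, orange points the 5 old libraries and black lines the means. Lgmn, Ctsl, Ctsc, Ctsz, Ctsa and Ctsb lie lower and Ctss lies higher in old kidney, while the ages overlap for Ctsd and Ctsh; heights of different genes are not comparable.

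The other soluble hydrolases fell or were not called: of 11 enzymes 7 fell (63.6%), none rose and 4 did not pass the test, where 30.5% of all genes tested fell and 29.2% rose. Lipa was called higher without the mitochondrial genes. Their summed level was 3567 to 4162 normalised counts in old and 5542 to 6295 in young libraries. The largest changes were those of Tpp1, Glb1 and Gusb.

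Tpp1 encodes a tripeptidyl peptidase and was at 1432, 1601, 1527 and 1339.8 normalised counts in young and 474, 802, 622, 488 and 436 in old kidney. Old replicate 2 was the highest of the old libraries and still below all young ones (-1.42 ± 0.14, a 2.61-fold fall, adjusted p = 9.22e-08). Glb1, the acid β-galactosidase whose activity is read as senescence-associated β-galactosidase, was at 510.2, 562, 479 and 459.9 in young and 263, 219, 205, 190.3 and 188 in old libraries. This transcript fell 2.36-fold without overlap (-1.24 ± 0.12, adjusted p = 4.18e-08). Reads of Tmppe, which overlaps Glb1 on the same strand, cannot be told apart from those of Glb1 where their exons coincide. Gusb, the β-glucuronidase, was at 146, 137, 150.0 and 109 in young and 64.8, 72.2, 83.2, 55 and 77.4 in old libraries (-0.93 ± 0.16, adjusted p = 4.76e-05). Its groups were separate as well.

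Further falls were measured for Man2b1, a lysosomal α-mannosidase (-0.74 ± 0.11, adjusted p = 1.08e-05), for the sialidase Neu1 (-0.68 ± 0.10, adjusted p = 1.15e-05) and for the acid ceramidase Asah1 (-0.60 ± 0.16, adjusted p = 0.00266), in which old replicate 5 overlapped the young libraries. Hexa, the α subunit of β-hexosaminidase, was at 133, 154, 152 and 162 in young and 104, 114, 97.4, 125 and 79.6 in old kidney. It fell by 0.54 ± 0.14 (SE) on the log2 scale (adjusted p = 0.00323), but missed the threshold with the length trend removed (0.0539). No change was called for Gaa, the acid α-glucosidase, at 171, 199, 179 and 156 in young and 186, 149, 179.5, 141 and 163 in old libraries (-0.11 ± 0.13, adjusted p = 0.47). The acid lipase Lipa was at 663, 559.7, 612 and 550.4 in young and 575, 539, 623, 805 and 766 in old libraries, with more spread among the old libraries (0.14 ± 0.12, adjusted p = 0.341), and at 0.28 (adjusted p = 0.0429) without the mitochondrial genes. The palmitoyl-protein thioesterase Ppt1 was at 330.0, 302, 311 and 306 in young and 269.9, 321, 302, 275 and 295 in old libraries (-0.10 ± 0.10, adjusted p = 0.421). Gla, the α-galactosidase, had few reads (10.8 ± 2.91 in young and 15.6 ± 4.13 normalised counts in old kidney), and its log2 fold change of 0.49 ± 0.32 was not called at this depth (adjusted p = 0.197).

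The 3 soluble proteins without enzyme activity each behaved differently. Psap, the precursor of the saposins that present sphingolipids to hydrolases, fell from 9207 ± 964 (SD, n = 4) to 6039 ± 301 (SD, n = 5; -0.60 ± 0.10, adjusted p = 3.81e-05). Npc2, which binds cholesterol in the lysosomal lumen and hands it to Npc1, was at 890.2, 811, 881 and 884 in young and 1513, 1261, 1456, 1476 and 1636 in old kidney. It rose 1.69-fold, with every old library above every young one (0.76 ± 0.092, adjusted p = 1.15e-06). Grn, the progranulin precursor, was at 1089, 975, 1050.1 and 972 in young and 832, 773, 842, 1187 and 1213 in old libraries, of which old replicates 1, 2 and 3 lay below all young libraries and old replicates 4 and 5 above them (-0.10 ± 0.13, adjusted p = 0.511).

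Membrane proteins fell more often than they rose, with 6 lower, 2 higher and 2 not called of 10 (all genes tested, 30.5% lower and 29.2% higher) and a median log2 fold change of -0.38. Without the mitochondrial genes in the scaling 5 fell and 3 rose, where 3170 of all 12654 genes tested fell and 4483 rose. Laptm4a, a small transmembrane protein of late endosomes and lysosomes, was at 2880.3, 3072, 3245 and 2892 normalised counts in young and 1104, 1302, 1116, 1006 and 952 in old libraries. It fell 2.76-fold without overlap (-1.47 ± 0.10, adjusted p = 5.06e-10). Its paralog Laptm4b was at 309.6, 223, 263 and 301 in young and 470.3, 315, 457, 357 and 299 in old libraries, a rise with overlapping groups (0.45 ± 0.14, adjusted p = 0.0103) that was lost without young replicate 2 (0.0521).

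Channels and transporters were mixed. Clcn7, the chloride-proton exchanger of lysosomes, was at 179, 169, 155 and 148 in young and 75.4, 75.5, 50.7, 48.5 and 63.6 in old kidney. The old libraries were all below the young, a 2.6-fold fall (-1.38 ± 0.16, adjusted p = 6.59e-07). Mcoln1, a lysosomal calcium release channel, went from 118 ± 34.2 (SD, n = 4) to 68.1 ± 22.7 (SD, n = 5) with overlap (-0.80 ± 0.22, adjusted p = 0.00465). Npc1, the membrane protein that exports cholesterol with Npc2, was at 70.4, 62.2, 53.9 and 86.9 in young and 149, 132, 116, 157 and 162 in old libraries. It rose 2.09-fold (1.07 ± 0.16, adjusted p = 1.24e-05), so that both Niemann-Pick type C transcripts were higher in every old library than in any young one. Ctns, the cystine exporter, was at 80.3, 77.7, 98 and 105 in young and 81.3, 79.9, 89.2, 158 and 108 in old libraries (0.15 ± 0.19, adjusted p = 0.491). Old replicate 4 was by far the highest of these, and without it the difference was -0.0086.

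Of the structural glycoproteins of the lysosomal membrane, Lamp1 was at 4561, 4585, 4932 and 4092 in young and 5660.1, 5355, 4690.4, 5395 and 5357 in old kidney. The values overlapped and the test missed the threshold narrowly (0.22 ± 0.094, adjusted p = 0.0506). It was called higher in 8 of 20 alternatives and lower in none, among them without the mitochondrial genes (0.36, adjusted p = 0.00176), with the length trend removed (0.40, adjusted p = 0.00106), without old replicate 3 (adjusted p = 0.0196), without young replicate 3 (adjusted p = 0.0477) and by DESeq2 (adjusted p = 0.0195). Lamp2, which is also needed for chaperone-mediated autophagy, was at 2055, 2011, 2054 and 1921 in young and 1704, 1902, 1548, 1709.8 and 1674 in old libraries. It was called lower (-0.24 ± 0.087, adjusted p = 0.0244), but not without the mitochondrial genes (0.335), nor without any of young replicates 1, 2 and 3 (0.0637, 0.0549 and 0.0668) or old replicate 3 (0.0522). Scarb2, the receptor that carries β-glucocerebrosidase to lysosomes, fell by 0.52 ± 0.13 (SE) on the log2 scale (adjusted p = 0.00237). Cd63, a tetraspanin of late endosomes, fell from 6909.6 ± 548 to 4414 ± 344 (-0.65 ± 0.10, adjusted p = 1.23e-05), although 52.8% of the 50-base words near its 3′ end are shared with the pseudogene Cd63-ps, so that its counts are uncertain.

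Summed over its 50 genes, the set amounted to 58124 to 62758 normalised counts in young and 46367 to 50995 in old libraries, or 80.4% of the young mean. The classes contributed unequally. The V-ATPase was at 95.3%, with V1 at 87.6% and V0 at 108%, and the 7 V1 genes other than Atp6v1b2, left out after its values were seen, summed to 6639 to 7152 normalised counts in young and 7200.4 to 7593 in old libraries, or 107% of the young mean. By the same measure cathepsins were at 73.9%, the 11 hydrolases at 62.1% and membrane proteins at 77.1% of the young mean. As a share of all reads, the 50 genes took 1.17% to 1.23% in young and 0.88% to 0.97% in old libraries, and of reads outside the mitochondrial genes 1.63% to 1.72% and 1.42% to 1.56%. On the latter scale cathepsins, hydrolases and membrane proteins remained lower in every old library than in any young one. Single genes weighed heavily in some of these sums. Lgmn went from a mean of 1159 to 164 normalised counts, within cathepsin sums of 8123 and 6004. Cd63, whose counts are uncertain, went from 6910 to 4414, within membrane protein sums of 17415.5 and 13419.4. Whether the ages stay separate without these genes was not examined. The soluble non-enzymes overlapped (0.274% to 0.330% in young and 0.251% to 0.275% in old), and the V-ATPase took 0.473% to 0.506% in young and 0.47% to 0.553% in old libraries and the ages also overlapped for V1 (0.238% to 0.250% in young and 0.225% to 0.244% in old).

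**Figure D4:**
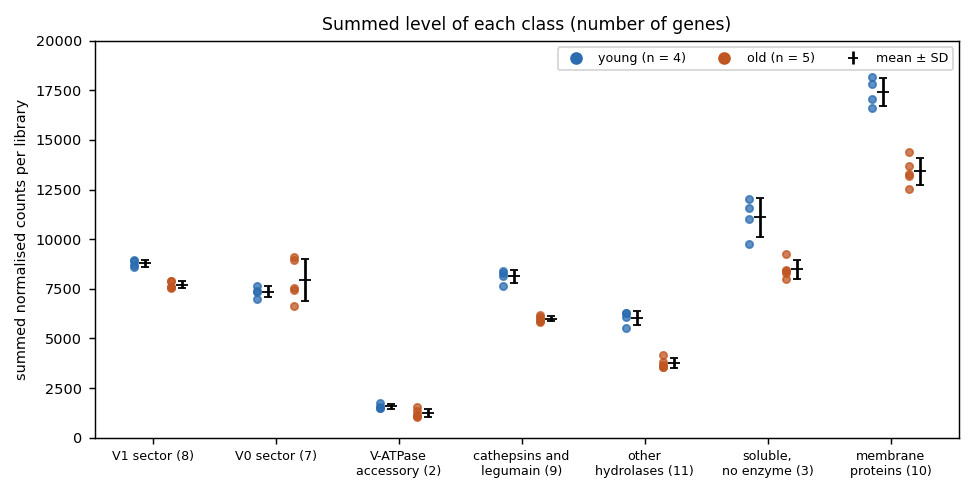
Summed normalised counts per library for each class, with the number of genes in parentheses; blue points are the 4 young libraries, orange points the 5 old libraries, and black marks the mean ± SD. The old libraries lie below the young ones for V1, cathepsins, other hydrolases, the soluble non-enzymes and membrane proteins, and the ages overlap for V0 and the accessory subunits.

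Summed levels of cell type markers also differed between the ages. Calls among them stand against 30.5% lower and 29.2% higher of all genes tested. The 14 proximal tubule markers summed to 205892 to 240552 normalised counts in young and 149059 to 203100.0 in old libraries, with 7 lower, 5 higher and 2 not called, or 6 lower and 3 higher with the length trend removed. Most of this sum was Kap, an abundant androgen-regulated transcript of the proximal tubule, at 159722 in young and 99735 in old kidney. Without Kap, left out after its values were seen, the direction of the means turned: the other 13 summed to 62554 to 67115 in young and 63435 to 80048 in old libraries (means 64509 and 72284). Markers of the thick limb and distal tubule (12194 to 12843 in young and 15687 to 19492 in old; 4 higher and 2 lower of 8), of endothelium (1806 to 1909 and 2298 to 2639; 5 higher of 8) and of podocytes (844 to 882 and 945 to 1136; 4 higher and 1 lower of 6) summed to more in each old library than in any young one. Of the thick limb and distal tubule markers 5 were higher and none lower without the mitochondrial genes, and 4 and 1 with the length trend removed. The podocyte marker Nphs1, called higher, passed the filter through the old libraries (8.74 to 15.7 in young and 35.5 to 67.2 in old), and without it 3 of 5 were higher. The sums of principal cell markers (2136 to 2826 and 1019 to 3119; 4 lower of 6) and adipocyte markers (4.09 to 588 and 6.53 to 828; none called of 3 tested, or 2 higher with the length trend removed) overlapped. For principal cells the overlap rested on old replicate 3, in which Aqp2, the water channel of these cells, was at 2267 against 334 to 694 in the other old libraries; without it the old sums were 1019 to 1550, all below the young. Adipoq, Plin1, Cidec and Adrb3 had no reads in at least 1 library. Every other marker in the table had reads in every library. The part of these markers in the lysosomal differences was not tested.

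Further lysosomal genes outside the 50 also fell more often than they rose. Of 42 further hydrolases and their cofactors 25 fell (59.5%), 7 rose (16.7%) and 10 were not called, where 30.5% of all genes tested fell and 29.2% rose. The RNases Rnaset2b (-3.29) and Rnaset2a (-3.13) and the α-mannosidase Man2b2 (-2.73) were called lower on the log2 scale, but the former pair share 87.6% of the 50-base words near their 3′ ends, so that their separate counts are uncertain, and Man2b2, at 35.95 to 66.99 normalised counts in young and 4.71 to 8.49 in old libraries, passed the filter on low counts through the young libraries alone. So did Ctsk, the cathepsin of osteoclasts, at 12.6 to 18.6 in young and 1.87 to 11.2 in old libraries, and of the other 40 genes 23 fell. In the other direction, Hgsnat, which acetylates heparan sulphate during its breakdown, was at 0.63 and the secreted glycoprotein Creg1 at 0.62. Of 40 further membrane proteins 17 fell (42.5%), 4 rose (10%) and 19 were not called, or 16 fell and 9 rose without the mitochondrial genes. The calcium channel Mcoln3 (-2.42), the tetraspanin Tspan3 (-2.23) and the lysosome-positioning subunit Borcs5 (-1.58) fell, and the transporters Mfsd12 (0.65) and Slc29a3 (0.60) rose. Mcoln3 was at 12.6 to 24.5 normalised counts in young and 1.06 to 4.66 in old libraries and likewise passed the filter through the young libraries alone, and 16 of the other 39 fell. Its old mean of 2.7 lay below the 2.8 to 3.54 normalised counts that 3 reads are worth in old libraries, so that the size of its fall depends on the count added before the logarithm.

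A list of 13 genes covered the tagging, modification and sorting of the enzymes and also held the endocytic receptor genes Lrp2 and Cubn. Of the 13, 6 fell (46.2%), Cubn among them, 4 rose (30.8%), Lrp2 among them, and 3 were not called. Of all genes tested 30.5% were lower and 29.2% higher. After scaling to the table total 6 fell and 2 rose, and with the length trend removed 5 fell and 1 rose. M6pr, the cation-dependent mannose 6-phosphate receptor that carries hydrolases from the Golgi, fell from 461 ± 26.4 (SD, n = 4) to 152 ± 15.9 (SD, n = 5; -1.60 ± 0.11, adjusted p = 7.37e-10). The sulphatase-modifying enzyme Sumf1 (-1.25) and Gnptg, a subunit of the phosphotransferase that makes the mannose 6-phosphate tag (-1.01), also fell on the log2 scale. The catalytic precursor of the same phosphotransferase, Gnptab, rose by 0.45 (adjusted p = 0.0482), a call lost in 10 of 20 alternatives (adjusted p up to 0.302), and Lrp2, the endocytic receptor megalin and itself a proximal tubule marker, rose from 3051 to 5913 (0.95 ± 0.10, adjusted p = 3.45e-07, and 0.22, adjusted p = 0.0522, with the length trend removed).

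**Figure D5:**
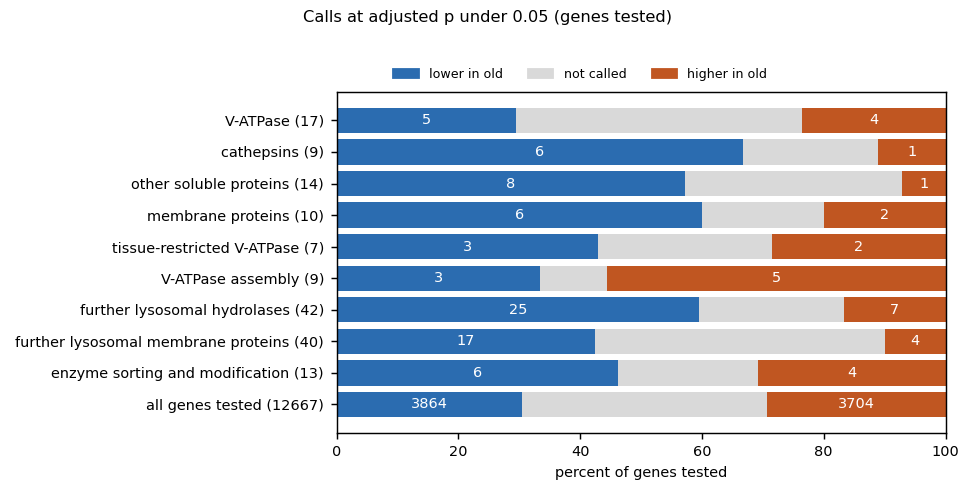
Horizontal bars give, for each class or list, the percent of genes tested that were lower in old kidney (blue), not called (grey) or higher (orange) at adjusted p under 0.05, with the numbers of genes written in the bars and the number tested in parentheses. Cathepsins, other soluble proteins, membrane proteins and further hydrolases have larger blue shares than all 12667 genes tested, and the V-ATPase assembly factors have the largest orange share of the bars shown.

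Genes with and without the CACGTG element were then set side by side. Of the 14 lysosomal genes with CACGTG in their promoter window 8 fell, none rose and 6 were not called, with a median log2 fold change of -0.45. Of the 26 without it 13 fell, 5 rose and 8 were not called, with a median of -0.17. The counts depended on the scaling. Without the mitochondrial genes 7 of the 14 fell and 2 rose, namely Lamp1 and Ctsd, and Atp6v1a was not called, while 12 of the 26 fell and 8 rose. With the length trend removed 8 of the 14 fell and 3 rose, namely Lamp1, Ctsd and Atp6v0b, while 12 of the 26 fell and 7 rose. Over all genes tested, 3170 of 12654 fell and 4483 rose in the former setting, and 3589 of 12433 fell and 3606 rose in the latter. The genes whose stretches are printed above show both outcomes: Lgmn, Glb1, Clcn7, Mcoln1, Ctsa and Atp6v1a fell, whereas Lamp1, with 4 copies, and Ctsd did not pass the main test. Over all tested genes with a window, 33.3% of those with CACGTG fell and 28.5% rose, against 31.5% and 28.4% of those without it. These shares are descriptions, and the difference between them was not tested.

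The old libraries did not contribute equally. Old replicate 2 was the one nearest the young mean for 14 of the 33 called lysosomal genes (42.4%), as for 37.5% of all called genes. Without it, 34 of the 50 genes were called, 26 lower and 8 higher. Transcript length, which rose with the log2 fold change over all genes (Spearman's rho 0.283 across 12433 genes), had little relation to it among the 50 (rho -0.095), whose median length was 2435 bases against 3068 for all genes. Genes of one library share its depth and base composition and are not independent replicates.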

How the data were processed

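Kidney RNA of 4 young and 5 old C57BL/6 mice was analysed from the deposited table of normalised counts. According to the labels and the study's methods, the authors prepared 3′ end libraries (QuantSeq, forward), aligned single reads to GRCm39 with TopHat2 2.0.10 (Bowtie 1.0.0, SAMtools 0.1.19), assigned them to genes in stranded mode with HTSeq 0.6.1 on a GENCODE annotation and normalised with DESeq. The deposited values are thus a signal on the count scale, reads divided by 1 size factor per library. All values were whole multiples, within 0.01, of the smallest positive value of their library, from which whole reads were recovered. How genes absent from the table were filtered is not given in the sources used here.

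The main test was limma 3.58.1 in R 4.3.3 (linear model, empirical Bayes with a variance trend) on log2(normalised count + 1). A gene was kept if 4 or more libraries reached 10 normalised counts (12667 genes, including all 50 lysosomal genes), p-values were Benjamini-Hochberg adjusted over them, and calls were made at 0.05. The script was tested on simulated data with 200 changed genes. Alternatives included count models fitted to the recovered reads (edgeR 4.0.16, DESeq2 1.42.0). Replicates are separate mice per the series design and were numbered in accession order.

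The 50 genes, the further lists and the markers were chosen with earlier results of these data known. All 50 are named with their fold change. Values in every library are given for the 3 called genes of each class with the largest changes, for genes called in the less frequent direction of their class and for genes whose call or sign changed in an alternative. From the further lists, the 3 largest called changes and the 2 largest in the other direction are named. Shared 50-base words, lengths and overlaps came from GENCODE vM21 (GRCm38, matched by symbol for 12833 of 13081 genes, 98.1%), and promoter sequences from RefSeq (GRCm38.p6). Annotated genes overlap Ctsd, Ctsl, Ctss, Atp6v1e1 and Atp6v0a1 on the same strand, where reads may have been shared or dropped. Neither source is the build of the table, so that no gene coordinates other than those of the printed promoter stretches are given.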

Additional observations from a re-analysis of the deposited data

Results flagged for a closer look

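In each age group the gap between the most extreme library and its nearest neighbour was divided by the range of the group and compared with Dixon's 95% critical value. This was done in 110 groups, where chance alone would mark about 5.5 (1 in 20), and 5 were marked. For Atp6v0e2, young replicate 4 was at 199 normalised counts and the other young libraries at 154 to 156 (ratio 0.964). Ctsd in young replicate 4 was at 1545, below the 1743 to 1774 of the others (0.872). For Npc2, young replicate 2 was at 811, below 881 to 890.2 in the others (0.893). Asah1 in old replicate 5 was at 112, above 70.9 to 79.1 in the other old libraries (0.763). For Cd63, old replicate 2 was at 5023, above 4219 to 4344 (0.832).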

How the results depend on the processing

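Over 20 alternatives, 30 to 38 of the 50 genes were called, and 934 of 994 gene results kept their direction and their side of the threshold. The number of all genes called was 7568, and 4101 when a mean of at least 100 was required, a setting that tests 5655 genes. Leaving out each library in turn gave 30 to 35 lysosomal genes and 6756 to 7561 of all genes. No paired analysis was possible because the titles carry no replicate numbers shared by both ages. A sign changed in 24 results, all of genes not called in the main analysis. Without the mitochondrial genes these were Atp6v1c1 (0.13), Atp6v1g1 (0.049), Atp6v0b (0.086), Gaa (0.032), Ppt1 (0.046) and Grn (0.041). With the length trend removed they were Atp6v1c1 (0.19), Atp6v1g1 (0.28), Atp6v0b (0.34), Ppt1 (0.058) and Grn (0.060), of which Atp6v1g1 and Atp6v0b were then called. After scaling to the table total they were Atp6ap1 (-0.036) and Ctsh (-0.033). With 1 library left out in turn the log2 fold change ran from -0.11 to 0.11 for Atp6ap1, -0.050 to 0.011 for Atp6v1c1, -0.015 to 0.048 for Ctsh, -0.13 to 0.051 for Atp6v0b and -0.0086 to 0.23 for Ctns. The cause of these changes was not tested. Of the other gene results, 12 lost and 24 gained a call. Genes with about 10 normalised counts, such as Gla, limit what this depth can show.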
